A study of Naumovozyma castellii with 24 samples.

Results

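The 5 genes of peroxide and nitric oxide defence followed here, in the yeast Naumovozyma castellii, a relative of Saccharomyces cerevisiae, were AHP1 (NCAS0C03400), CTT1 (NCAS0E01190), TRR2 (NCAS0H01980), YAP7 (NCAS0I00630) and YHB1 (NCAS0F00560). They are 5 of 5648 genes with counts, picked by symbol with their levels in low oxygen and with cobalt in the wild type known, so their values in those 2 comparisons, and in those that set a deletion strain against the same WT libraries, are a description without a test. The series holds 24 RNA-seq libraries, all of strain background DBP004 and all grown in YPD medium at 30 °C. In the deletion experiment, cultures reached an A600 of 1 and then stood for 2 h with 0.6 mM cobalt chloride (CoCl2), a chemical mimic of hypoxia, or without it. All of these cultures were at 21% oxygen. The genotypes were rox1 (lacking ROX1), rox2 (lacking ROX2), rox1/rox2 (lacking both) and wild type (WT), with 2 libraries each with CoCl2 and, without it, 2 of rox1, 3 of rox2, 2 of rox1/rox2 and 3 of WT. In the oxygen experiment, WT cultures grew for 6 h from an A600 of 0.2 in 1% oxygen (hypoxia) or 21% oxygen (normoxia), with 3 libraries each.

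Peroxides are removed by haem-containing catalases and by peroxiredoxins, thiol enzymes that thioredoxin recharges and that thioredoxin reductase in turn serves with electrons from NADPH. In S. cerevisiae, Ctt1 is the cytosolic catalase, Ahp1 a peroxiredoxin that prefers organic hydroperoxides, and Trr2 the mitochondrial thioredoxin reductase beside the cytosolic Trr1. Yhb1 is a flavohaemoglobin that turns nitric oxide into nitrate with oxygen, and Yap7, a bZIP factor of the Yap family, represses YHB1 in S. cerevisiae and Candida glabrata. Rox1 of S. cerevisiae is a haem-dependent repressor of hypoxic genes.

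Libraries held 5585196 to 12738873 gene counts in the deletion experiment and 11993105 to 12181501 in the oxygen experiment. ROX1 had 0 or 1 count in every library labelled as lacking it and 18.3 to 20.1 CPM (counts scaled to library size) in untreated WT. ROX2 carries no symbol in the annotation used. Reads outside annotated genes made up 6.03% to 19.9% with CoCl2 and 4.52% to 14.5% without, and 2 libraries stood apart, rox2 with CoCl2 replicate 1 at 19.9% and rox2 without CoCl2 replicate 3 at 14.5%. Results of the 5 genes in rox2 are given with and without both. Each of the 5 genes had at least 106 counts in every library.

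**Figure D1:**
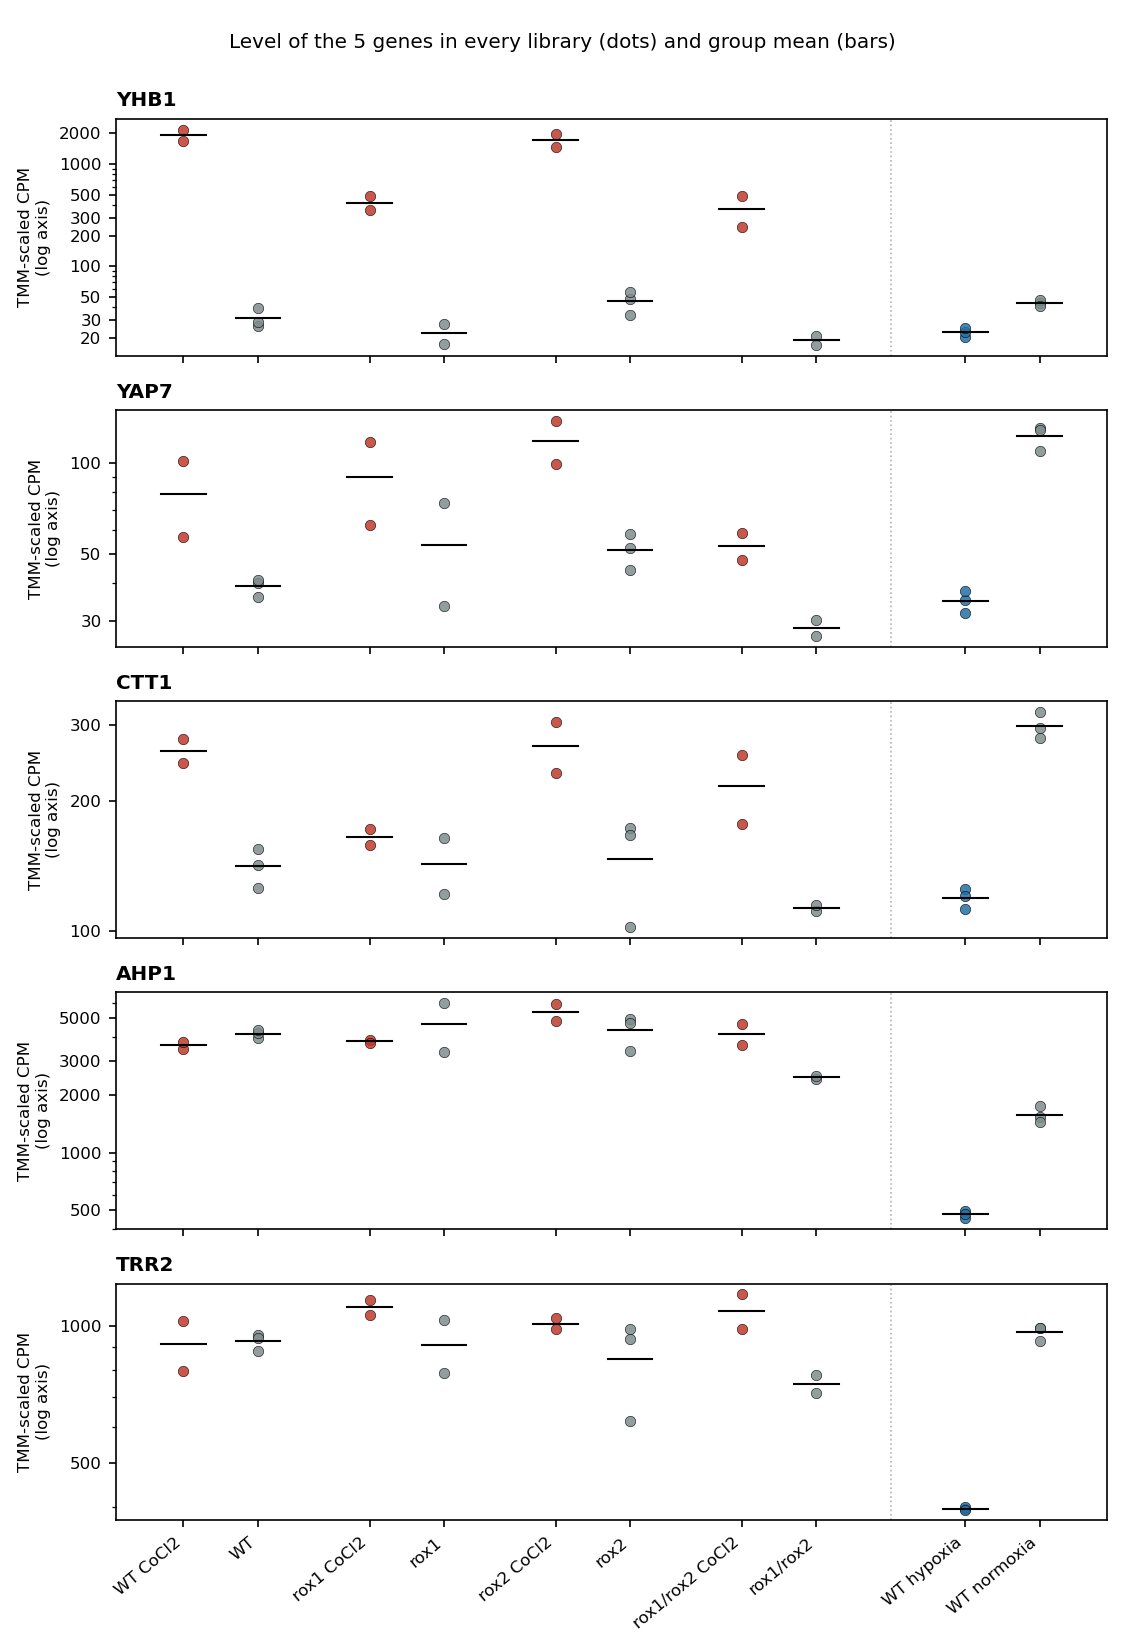
CPM scaled by TMM (log axis) of YHB1, YAP7, CTT1, AHP1 and TRR2 in every library (dots) with group means (bars), by group, with the oxygen experiment right of the dotted line. YHB1 stood at 242 to 2156 CPM in the 8 libraries with CoCl2 and at 17.1 to 55.8 CPM in the 10 of the deletion experiment without it, and all 5 genes were lower in hypoxia than in normoxia.

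In hypoxia all 5 genes were lower than in normoxia, and in none did the 3 libraries of one group overlap those of the other. YAP7, the regulator, stood at 32.1, 35.3 and 37.8 CPM in hypoxia, against 130, 128 and 109 CPM in normoxia. The peroxiredoxin gene AHP1 had 495, 454 and 479 CPM in hypoxia and 1540, 1449 and 1740 CPM in normoxia. Both groups were tight and far apart for each gene. The catalase gene CTT1 had 125, 121 and 113 CPM in hypoxia and 322, 280 and 295 CPM in normoxia, and the reductase gene TRR2 had 396, 399 and 395 CPM in hypoxia and 925, 990 and 992 CPM in normoxia. YHB1 was the least shifted, at 20.7, 22.9 and 25.2 CPM in hypoxia and 43.6, 46.7 and 41.4 CPM in normoxia. The log2 fold changes were −1.81 (SE 0.0881) for YAP7, −1.73 (SE 0.0733) for AHP1, −1.32 (SE 0.0658) for CTT1, −1.29 (SE 0.0497) for TRR2 and −0.94 (SE 0.0934) for YHB1. They are the 8th, 9th, 17th, 19th and 34th lowest of 5559 tested genes, and 3.85% of the tested genes were called lower and 13.8% had every hypoxia library below every normoxia library. Since the genes were chosen on this contrast, their ranks and counts carry no test. Each library is of a whole culture, so fewer cells with a transcript and less transcript per cell cannot be told apart.

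Around these genes, a list of 55 other defence genes, written by S. cerevisiae name and role, gave 47 that could be tested in both experiments. The list was written with earlier results of these data known, so its shares beside those of all genes are a description. In hypoxia 12 of the 47 fell (25.5%) and none rose, against 3.85% and 2.64% of all genes by edgeR (6.49% in either direction). The list median was −0.09 log2 and that of all genes −0.0029. Genes that fell included SOD1 for copper-zinc superoxide dismutase (log2 fold change −1.22, SE 0.0637, adjusted p = 4.33e-06), TSA1 for the major cytosolic peroxiredoxin (−1.07, SE 0.0492, adjusted p = 3.07e-06) and SRX1 for sulfiredoxin, which repairs peroxiredoxins (−1.04, SE 0.0831, adjusted p = 9.74e-05). By role, 2 of 3 superoxide dismutation genes, 4 of 6 peroxiredoxin and glutathione peroxidase genes and 2 of 3 thioredoxin genes fell, as did 2 of 10 genes for AP-1 and other stress regulators, 1 of 11 glutathione and glutaredoxin genes and 1 of 6 genes of NADPH supply. None of 2 genes for catalase and cytochrome c peroxidase, 2 for methionine sulfoxide reductases and 4 of nitric oxide and sulfite handling passed, the last with log2 values between −0.05 and 0.04. The mitochondrial peroxiredoxin gene PRX1 (−0.64, SE 0.157) and YAP1, the peroxide-sensing relative of YAP7 (−0.21, SE 0.0504), were called at adjusted p = 0.0421 and 0.0385, but both calls were lost without any of 5 of the 6 libraries, with adjusted p up to 0.144 and 0.171 without normoxia replicate 1. TRR1 gave −0.02 (SE 0.0551, adjusted p = 0.848), beside −1.29 for its paralog TRR2. CTA1, the peroxisomal catalase of S. cerevisiae, gave −0.06 (SE 0.173, adjusted p = 0.890), beside −1.32 for CTT1. These pairs differ as values, and the difference between 2 genes was not tested. The number of list genes that fell was 6 and 7 without hypoxia replicates 1 and 2, where 113 and 118 of all genes fell. With the replicate number as a block 14 fell and 1 rose, while the genes called overall were 302 higher and 439 lower with the block and 147 and 214 without it.

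In WT with CoCl2 the 5 genes parted. YHB1, the nitric oxide scavenger, stood at 1688 and 2156 CPM with CoCl2, against 26.1, 28.9 and 39.5 CPM without it. YAP7, its repressor in other yeasts, had 56.9 and 101 CPM with CoCl2 and 36.0, 40.2 and 41.0 CPM without it. CTT1 had 279 and 244 CPM with CoCl2 and 126, 142 and 155 CPM without it. These 3 genes were higher in both treated libraries than in every untreated one, as were 38.5% of all genes, and the 2 treated YAP7 libraries lay farther from each other than the lower of them lay from the controls. AHP1 had 3473 and 3765 CPM with CoCl2 and 3928, 4170 and 4333 CPM without it, and TRR2 had 798 and 1025 CPM with CoCl2 and 881, 954 and 941 CPM without it. AHP1 was slightly lower in both treated libraries, as were 37.8% of all genes, while those of TRR2 lay on either side of the controls. The log2 fold changes were 5.93 (SE 0.361) for YHB1, 1.01 (SE 0.322) for YAP7, 0.89 (SE 0.229) for CTT1, −0.20 (SE 0.252) for AHP1 and −0.02 (SE 0.214) for TRR2. YHB1 held the 4th highest log2 fold change of 5544 tested genes, in a comparison in which 27.7% of genes were called higher and 19.4% lower (1533 and 1074, or 1872 and 623 with scaling by total counts). Scaling by total counts moved the median of all genes by 0.24 log2, and AHP1 and TRR2 were then at 0.04 and 0.21, so their sign depends on the scaling. The YAP7 value was 1.37 without CoCl2 replicate 1 and 0.54 without CoCl2 replicate 2.

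The CoCl2 response of YHB1 recurred in all 3 deletion strains, whose libraries do not enter the WT contrast. In rox1, YHB1 had 484 and 357 CPM with CoCl2 and 27.5 and 17.7 CPM without it. In rox2 it had 1951 and 1457 CPM with CoCl2 and 48.7, 55.8 and 33.8 CPM without it, and in rox1/rox2 487 and 242 CPM with CoCl2 and 21.0 and 17.1 CPM without it. No treated library came near an untreated one. All genes with every treated library higher made up 26.9% (rox1), 31.2% (rox2) and 32.4% (rox1/rox2). With CoCl2, YHB1 rose by 4.22 log2 in rox1 (SE 0.400, edgeR adjusted p = 5.31e-05), by 5.20 log2 in rox2 (SE 0.350, adjusted p = 4.03e-07) and by 4.26 log2 in rox1/rox2 (SE 0.403, adjusted p = 8.75e-05). It was the 3rd, 5th and 2nd highest log2 fold change of the 5544 genes in these strains. The rise in rox2 was 4.80 log2 without both libraries of high no-feature share. YHB1 passed the test in each strain under every alternative fit, with values of 3.89 to 4.55 in rox1, 4.80 to 5.46 in rox2 and 3.66 to 4.67 in rox1/rox2.

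With CoCl2, YHB1 was lower in the strains without ROX1 than in WT. Both rox1 libraries (484 and 357 CPM) and both rox1/rox2 libraries (487 and 242 CPM) lay below both WT libraries (1688 and 2156 CPM), whereas those of rox2 (1951 and 1457 CPM) overlapped with WT. In rox1 31.3% and in rox1/rox2 22% of all genes lay below WT in this way. Against WT, the log2 difference of YHB1 was −2.19 for rox1 (SE 0.362), −2.40 for rox1/rox2 (SE 0.365) and −0.17 for rox2 (SE 0.347), or −0.40 for rox2 without both libraries of high no-feature share. Over the alternative fits it lay between −2.43 and −1.99 for rox1 and between −2.99 and −1.98 for rox1/rox2. These values carry no test, since the treated WT libraries entered the choice of the genes. Without CoCl2, the log2 difference of YHB1 from WT was −0.48 for rox1 (SE 0.331), 0.55 for rox2 (SE 0.291) and −0.72 for rox1/rox2 (SE 0.338).

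The CoCl2 response itself was also set against that of WT. It was smaller for YHB1 by 1.71 log2 in rox1 (SE 0.477), by 0.73 log2 in rox2 (SE 0.453) and by 1.68 log2 in rox1/rox2 (SE 0.480), which is a description, since the response of WT chose the gene. Among the deletion strains, the response of YHB1 in rox1 minus that in rox2 was −0.98 log2 (SE 0.476, adjusted p = 0.191), and in rox1/rox2 minus rox2 it was −0.95 log2 (SE 0.480, adjusted p = 0.352). Without both rox2 libraries of high no-feature share these values were −0.58 and −0.55. In rox1/rox2 minus rox1 it was 0.03 log2 (SE 0.502, adjusted p = 0.985), and this value changed sign between alternatives. None of the 5 genes passed any of these 3 differences by edgeR, where 5.61%, 0.234% and 0% of all genes did. At an unadjusted p under 0.05 the only one was AHP1, in rox1/rox2 minus rox1, and DESeq2 called none. In that difference 260 of 5544 genes had an unadjusted p under 0.05. An SE near 0.5 log2 leaves room for sizeable differences.

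**Figure D2:**
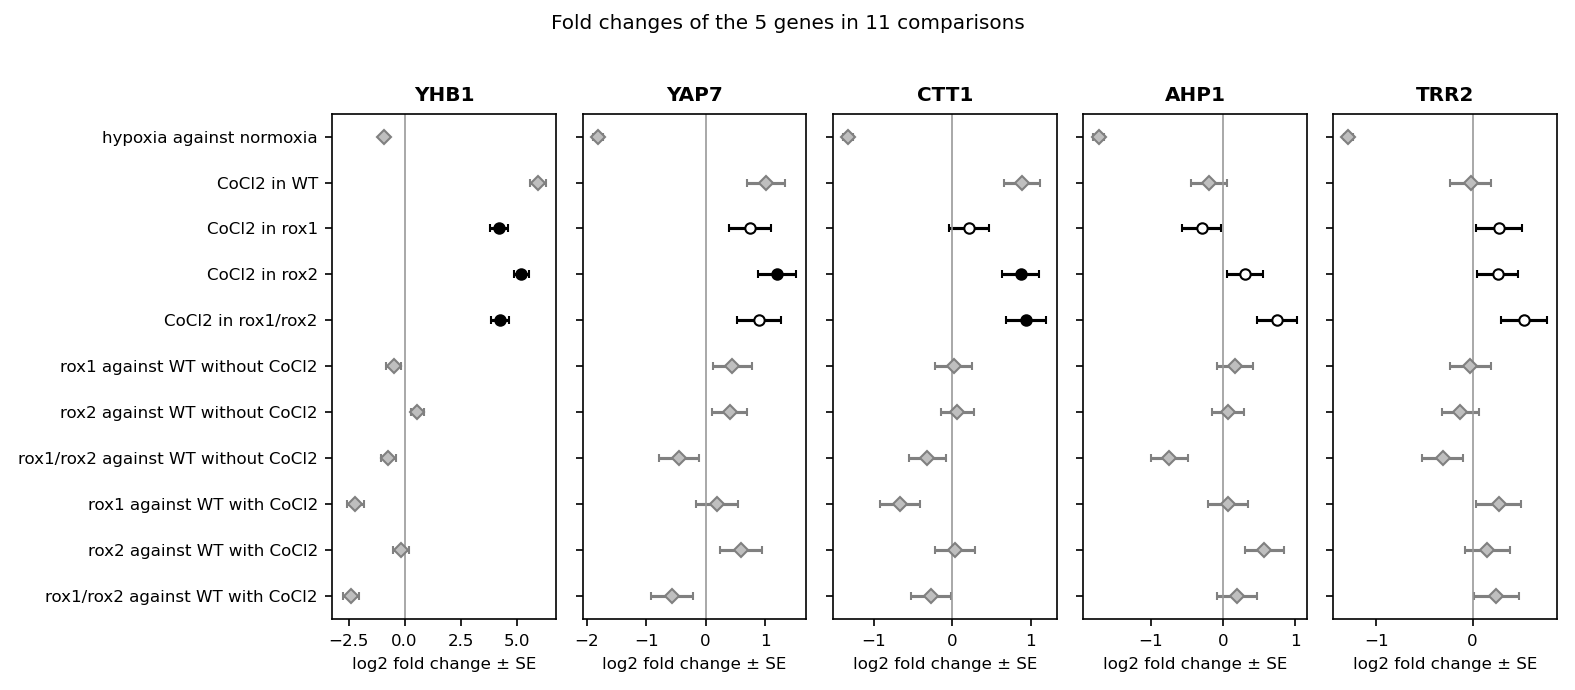
Log2 fold change with its SE of each gene in 11 comparisons, where filled circles mark adjusted p under 0.05, open circles did not pass, and grey diamonds are comparisons whose libraries chose the genes, shown without a test. Each panel has its own horizontal scale. YHB1 lay at 4.22 to 5.93 in the 4 CoCl2 comparisons and, as a description, at −2.19 and −2.40 in rox1 and rox1/rox2 against WT with CoCl2.

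YAP7 and CTT1 moved with CoCl2 in some deletion strains, by far less than YHB1. YAP7 had 99.3 and 138 CPM with CoCl2 in rox2, against 58.1, 44.3 and 52.5 CPM without it, and CTT1 had 306 and 232 CPM with CoCl2 in rox2, against 173, 167 and 102 CPM without it. Both groups were apart for both genes. In rox2, where 48.1% of all genes were called (1458 higher and 1209 lower, or 1794 and 701 with scaling by total counts), YAP7 rose by 1.20 log2 (SE 0.320, adjusted p = 0.00770) and CTT1 by 0.87 log2 (SE 0.230, adjusted p = 0.00736). The call of YAP7 was lost without rox2 CoCl2 replicate 2 (0.94, adjusted p = 0.0594) and held without both libraries of high no-feature share (1.42, adjusted p = 0.0245). The call of CTT1 was lost without rox2 CoCl2 replicate 1 (0.65, adjusted p = 0.0945), without both libraries of high no-feature share (0.45, adjusted p = 0.149) and in the fit of only rox2 libraries (adjusted p = 0.0574). The lowest untreated CTT1 library and the highest treated one were those of high no-feature share, and the part of library quality in this result was not tested.

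In rox1/rox2, CTT1 had 256 and 177 CPM with CoCl2 and 111 and 115 CPM without it, and it rose by 0.94 log2 (SE 0.258, adjusted p = 0.0478). This call was lost without rox1/rox2 replicate 1, replicate 2 or CoCl2 replicate 1, with adjusted p of 0.280, 0.225 and 0.364, and in the fit of 2 groups (0.114). YAP7 had 58.6 and 47.8 CPM with CoCl2 and 30.4 and 26.8 CPM without it in rox1/rox2 (0.90 log2, SE 0.368, adjusted p = 0.154). In rox1, YAP7 had 117 and 62.5 CPM with CoCl2 and 73.5 and 33.7 CPM without it, so that the groups overlapped (0.75 log2, SE 0.357, adjusted p = 0.223). CTT1 had 158 and 172 CPM with CoCl2 and 164 and 122 CPM without it in rox1 (0.21 log2, SE 0.255, adjusted p = 0.682). Among the 5 genes, YHB1 alone passed in rox1, where 8.06% of all genes did (269 higher and 178 lower, or 295 and 67 with scaling by total counts), and YHB1 and CTT1 passed in rox1/rox2, where 5.79% did.

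The thiol enzymes AHP1 and TRR2 did not pass the test with CoCl2 in any deletion strain. AHP1 had 3878 and 3703 CPM with CoCl2 and 6000 and 3327 CPM without it in rox1 (log2 fold change −0.30, SE 0.275, adjusted p = 0.554). In rox2 it had 5908 and 4864 CPM with CoCl2 and 4943, 4712 and 3396 CPM without it (0.31, SE 0.250, adjusted p = 0.315). The untreated rox1 and rox2 libraries spread widely, and the groups overlapped. TRR2 had 1059 and 1139 CPM with CoCl2 and 1031 and 788 CPM without it in rox1 (0.27, SE 0.235, adjusted p = 0.526), and 984 and 1042 CPM with CoCl2 and 985, 935 and 618 CPM without it in rox2 (0.26, SE 0.213, adjusted p = 0.320). Without both rox2 libraries of high no-feature share, AHP1 gave 0.01 and TRR2 0.12 in rox2. In rox1/rox2, AHP1 had 3620 and 4646 CPM with CoCl2 and 2420 and 2519 CPM without it (0.74, SE 0.277, adjusted p = 0.119), and TRR2 had 985 and 1175 CPM with CoCl2 and 780 and 711 CPM without it (0.53, SE 0.235, adjusted p = 0.183). All 5 genes were higher in both treated rox1/rox2 libraries than in both untreated ones, as were 32.4% of all genes. With scaling by total counts, which moved the median of all genes by 0.23 log2 in rox2 and 0.14 log2 in rox1/rox2, AHP1 passed in both strains (0.56 and 0.87, adjusted p = 0.0336 and 0.0380) and TRR2 in rox2 (0.50, adjusted p = 0.0284).

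Without CoCl2, rox1/rox2 had the lowest mean TMM-scaled CPM of all 8 groups of the deletion experiment for each of the 5 genes. AHP1 had 2420 and 2519 CPM in rox1/rox2 and 3928 to 4333 CPM in WT, CTT1 had 111 and 115 CPM in rox1/rox2 and 126 to 155 CPM in WT, and TRR2 had 780 and 711 CPM in rox1/rox2 and 881 to 954 CPM in WT. YAP7 had 30.4 and 26.8 CPM in rox1/rox2 and 36.0 to 41.0 CPM in WT, and YHB1 had 21.0 and 17.1 CPM in rox1/rox2 and 26.1 to 39.5 CPM in WT. With this scaling, every rox1/rox2 library lay below every WT library for all 5 genes, as it did for 33.6% of all genes. The log2 differences were −0.75 (SE 0.257) for AHP1, −0.72 (SE 0.338) for YHB1, −0.45 (SE 0.340) for YAP7, −0.32 (SE 0.236) for CTT1 and −0.31 (SE 0.216) for TRR2. With scaling by total counts, which moved the median of all genes by 0.27 log2, AHP1 was at −0.48, YAP7 at −0.18, CTT1 at −0.05 and TRR2 at −0.04. The rox1/rox2 libraries then overlapped with WT for CTT1 and TRR2, and rox1/rox2 no longer had the lowest mean of TRR2. The place of rox1/rox2 thus depends on the scaling for these genes. YHB1 in rox2 against WT gave 0.73 without both libraries of high no-feature share. The comparisons without CoCl2 share the untreated WT libraries with one another and with the CoCl2 comparison in WT, which chose the genes, so they carry no test.

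Ordered by mean TMM-scaled CPM over the 8 groups, YHB1 fell into tiers. It averaged 1922 ± 331 CPM in WT with CoCl2 and 1704 ± 349 CPM in rox2 with CoCl2, which overlapped, then 421 ± 89.7 CPM in rox1 with CoCl2 and 364 ± 173 CPM in rox1/rox2 with CoCl2, which also overlapped, and 46.1 ± 11.2 CPM or less in the 4 untreated groups (SD, n = 2 or 3). No library of one tier reached the next. CTT1 was highest in rox2, WT and rox1/rox2 with CoCl2, at 269 ± 52.3, 262 ± 24.3 and 217 ± 55.9 CPM, and its levels in rox1 with CoCl2 (165 ± 9.64 CPM), untreated rox2, rox1 and WT overlapped with one another in sequence. For AHP1 the top 7 groups overlapped neighbour by neighbour between 5386 ± 738 CPM in rox2 with CoCl2 and 3619 ± 207 CPM in WT with CoCl2, and only untreated rox1/rox2 stood apart, at 2470 ± 69.6 CPM. TRR2 ranged from 1099 ± 56.7 CPM in rox1 with CoCl2 to 746 ± 48.8 CPM in untreated rox1/rox2, and YAP7 from 118 ± 27.1 CPM in rox2 with CoCl2 to 28.6 ± 2.53 CPM in untreated rox1/rox2.

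**Figure D3:**
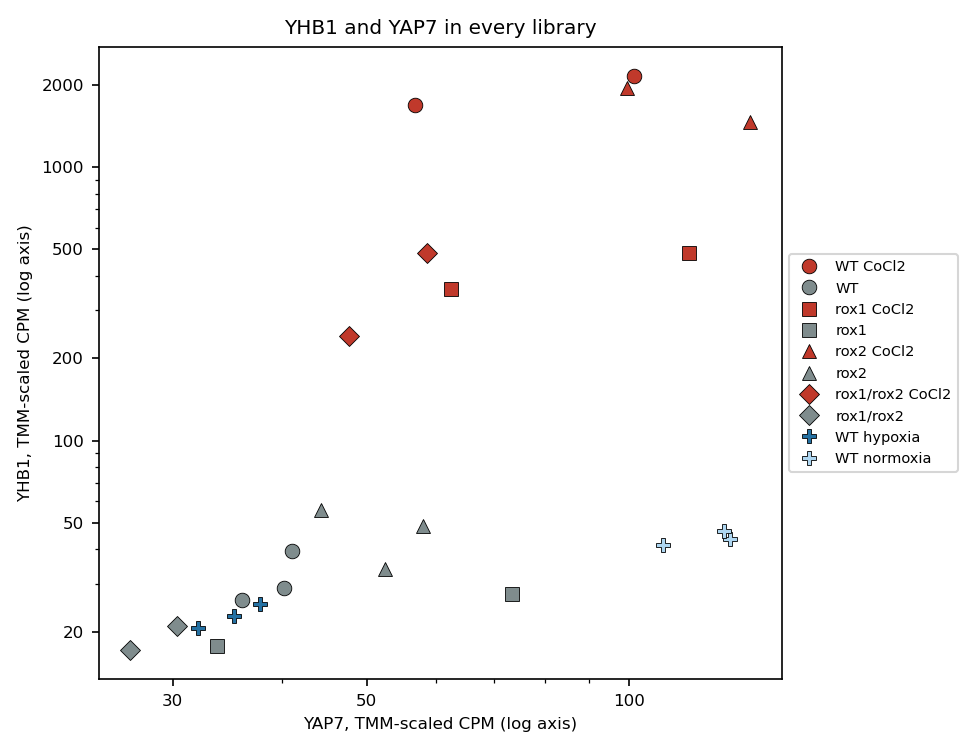
YHB1 against YAP7 in every library, both as TMM-scaled CPM on log axes, with symbols for genotype and colours for treatment. Libraries with 99.3 CPM or more of YAP7 include 1 of WT and 2 of rox2 with CoCl2 at 1457 to 2156 CPM of YHB1 and the normoxic WT at 41.4 to 46.7 CPM of YHB1.

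Similar CPM of YAP7 went with very different CPM of YHB1. In normoxia of the oxygen experiment YAP7 stood at 109 to 130 CPM and YHB1 at 41.4 to 46.7 CPM, while in rox2 with CoCl2 YAP7 stood at 99.3 and 138 CPM and YHB1 at 1951 and 1457 CPM. In rox1 with CoCl2, YAP7 at 117 and 62.5 CPM went with YHB1 at 484 and 357 CPM. The experiments differ in library type, sequencing provider and culture, so levels are side by side without a test between them. WT without CoCl2 at 21% oxygen averaged 39.1 CPM of YAP7 in the deletion experiment and 123 CPM in the oxygen experiment. Equal CPM of YAP7 in the 2 experiments therefore need not be an equal level. In the plot of YHB1 against YAP7 both genes were lower in hypoxia than in normoxia and higher with CoCl2 than without it in WT, rox2 and rox1/rox2.

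The number of other defence genes called with CoCl2 differed among strains. WT and rox2 had 3 untreated libraries and rox1 and rox1/rox2 had 2, so counts of calls are not an equal measure across strains. As in hypoxia, the shares are a description, since the list was written with earlier results of these data known. In WT 22 of 47 rose (46.8%) and 4 fell (8.51%), against 27.7% and 19.4% of all genes, with a list median of 0.39 and a median of all genes of 0.0020. In rox1 3 rose (6.38%) and none fell, against 4.85% and 3.21%, with medians of 0.02 and 0.04. In rox2 30 rose (63.8%) and 4 fell (8.51%), against 26.3% and 21.8%, with medians of 0.64 and −0.0098, and in rox1/rox2 7 rose (14.9%) and none fell, against 4.38% and 1.41%, with medians of 0.34 and 0.00093. In WT the number that rose was 11, 12 and 12 without WT replicate 1, WT replicate 2 or WT CoCl2 replicate 1, and the number that fell was 1 without the last. Of all genes, 1200, 1195 and 1009 rose in these WT fits. In rox2 18 rose without rox2 CoCl2 replicate 1, and 20 rose and 2 fell without both libraries of high no-feature share. Of all genes, 917 rose in the first of these fits, and 1128 rose and 809 fell in the second. In rox2 2 fell without rox2 replicate 1 or without CoCl2 replicate 1. In rox1 1 rose without rox1 replicate 1, and 4 rose and 4 fell without rox1 replicate 2. Of 5557 genes, 102 rose without rox1 replicate 1, and 470 rose and 460 fell without rox1 replicate 2. In rox1/rox2 0 to 3 rose when any 1 of its 4 libraries was left out. Of all genes, 33, 36, 75 and 304 rose then.

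The CoCl2 responses of the 47 genes were also set against each other between strains. In rox1 minus rox2, 6 were lower (12.8%) and none higher by edgeR, against 4.08% and 1.53% of all genes, with medians of −0.66 for the list and 0.02 for all genes. Chosen after their values were seen, the 3 with the largest differences were GPX1 for a glutathione peroxidase (−2.47 log2, SE 0.578, adjusted p = 0.0329), SRX1 (−2.37, SE 0.486, adjusted p = 0.0255) and PRX1 (−2.04, SE 0.526, adjusted p = 0.0389). None of the 3 calls held without both rox2 libraries of high no-feature share, where the values were −2.09, −1.60 and −1.36 (adjusted p = 0.0553, 0.0511 and 0.134), although 7 list genes were lower there. None of the 47 was lower without rox1 replicate 1, rox2 replicate 1, rox1 CoCl2 replicate 2 or rox2 CoCl2 replicate 1. Of all genes, only 0, 6, 0 and 2 were lower in these fits, so the absence is not particular to the list. Without rox2 replicate 2, 3 list genes and 135 of all genes were lower. The list count was 17, 16, 11 and 14 without rox1 replicate 2, rox2 replicate 3, rox1 CoCl2 replicate 1 and rox2 CoCl2 replicate 2, and 17 by DESeq2. The counts over all genes were then 427, 550, 372, 569 and 572. In rox1 minus WT, GPX1 (−3.07 log2, SE 0.582, adjusted p = 0.0193) and GRX4 for a monothiol glutaredoxin (−1.39, SE 0.334, adjusted p = 0.0362) were the 2 lower ones and none was higher, against 3.9% and 0.812% of all genes. Both of these calls were lost without WT replicate 1, WT replicate 2, rox1 replicate 1 or rox1 CoCl2 replicate 2, with adjusted p up to 0.111 for GPX1 and 0.123 for GRX4. No list gene passed in rox1/rox2 minus rox1, rox1/rox2 minus rox2, rox2 minus WT or rox1/rox2 minus WT by edgeR, where 0%, 0.234%, 0.0902% and 0.397% of all genes did. At an unadjusted p under 0.05 there were 7, 10, 9 and 6 in these 4 differences, and DESeq2 called 0, 0, 3 and 2. Of all 5544 genes, 260, 882, 773 and 822 had an unadjusted p under 0.05. DESeq2 called 1, 55, 90 and 41 of all genes higher and 1, 129, 56 and 186 lower.

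**Figure D4:**
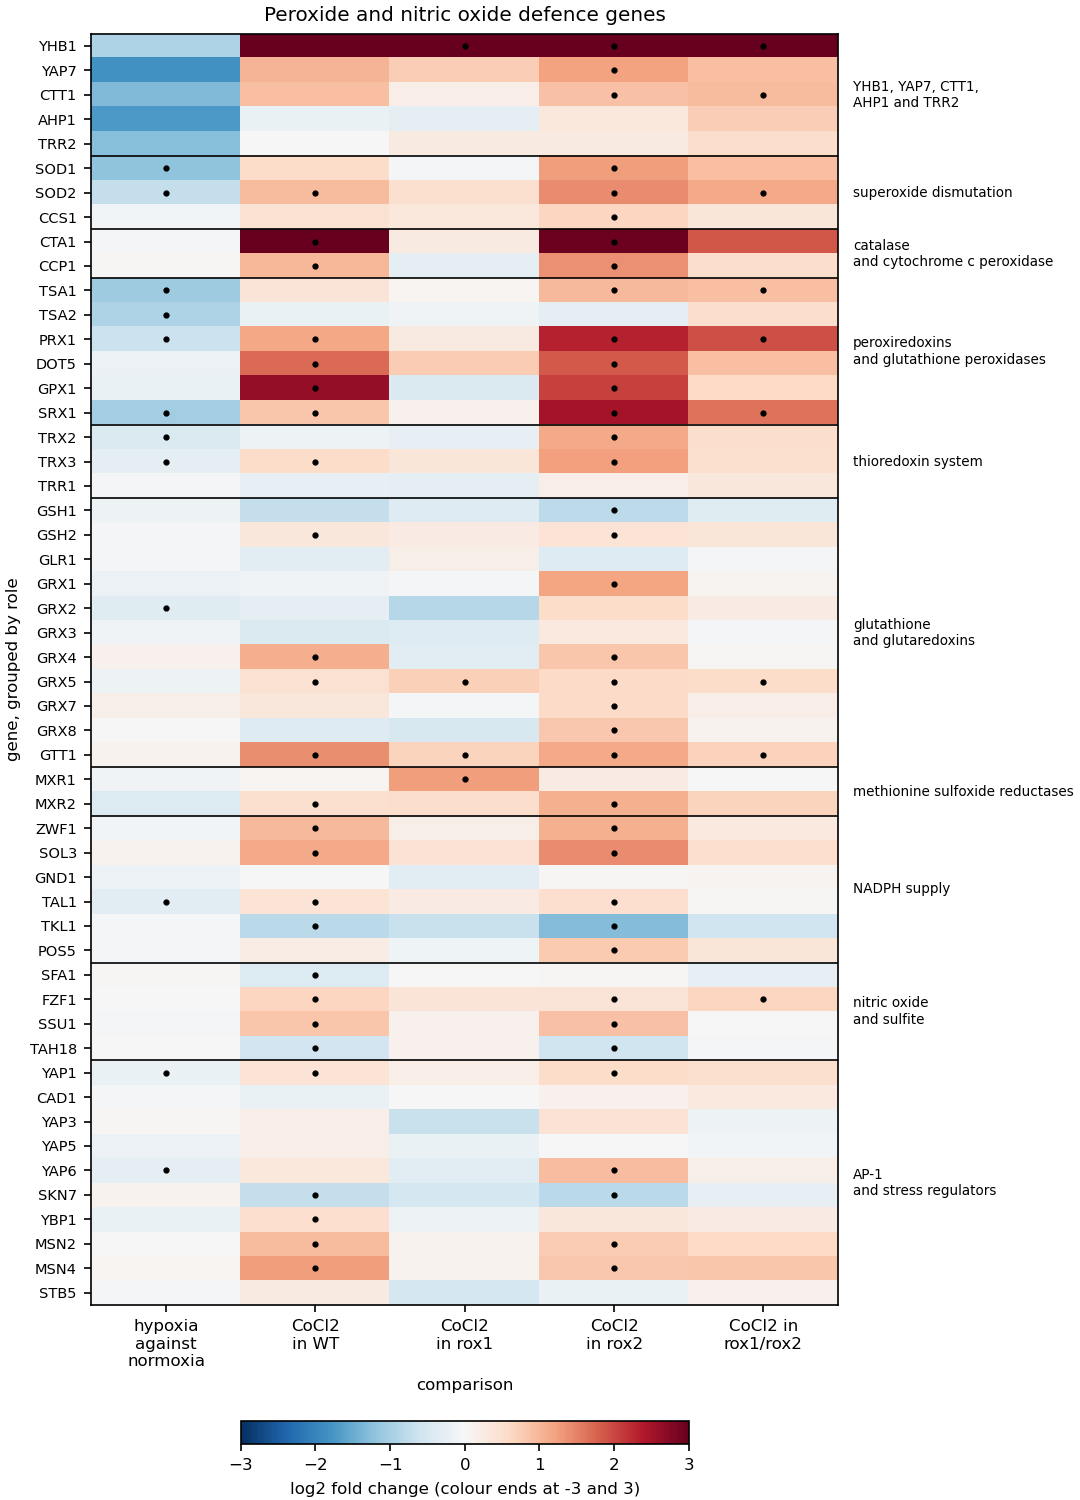
Log2 fold changes (colour, ends at −3 and 3) of the 5 genes and 47 other defence genes, grouped by role, in hypoxia and in the CoCl2 comparison of each strain. Dots mark adjusted p under 0.05, and the top 5 genes carry none in the first 2 columns, which chose them. Dots are most frequent in the columns of WT and rox2 with CoCl2.

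In WT with CoCl2, CTA1, the other catalase gene, had 9.99 and 41.2 CPM with CoCl2 and 2.22 to 2.63 CPM without it, and it rose by 3.39 log2 (SE 0.654, adjusted p = 0.000931), with 2.02 and 4.06 as the lowest and highest value over the alternatives. GPX1 rose by 2.64 log2 (SE 0.362, adjusted p = 7.84e-05) and DOT5 for the nuclear peroxiredoxin by 1.69 log2 (SE 0.261, adjusted p = 0.000188). These 3 calls held in every alternative. TKL1 for transketolase fell by 0.82 log2 (adjusted p = 0.0275), SKN7 for a regulator of oxidative stress genes by 0.72 log2 (adjusted p = 0.00544) and TAH18 for an electron-transfer flavoprotein by 0.57 log2 (adjusted p = 0.0185). Without WT CoCl2 replicate 1 the calls of TKL1 and TAH18 were lost (adjusted p = 0.236 and 0.113), and that of TAH18 also with total counts. Relatives of the followed genes moved less than YHB1. FZF1, which activates nitrosative stress genes in S. cerevisiae, rose by 0.65 log2 (SE 0.130, adjusted p = 0.00117), SSU1 for a sulfite pump by 0.83 log2 (SE 0.209, adjusted p = 0.00542) and PRX1 by 1.15 log2 (SE 0.349, adjusted p = 0.0150), while SFA1, which reduces S-nitrosoglutathione, fell by 0.41 log2 (SE 0.154, adjusted p = 0.0429). SSU1 lost its call without WT CoCl2 replicate 2 (adjusted p = 0.0998), PRX1 and SFA1 without WT CoCl2 replicate 1 among others (0.224 and 0.190). SFA1 lost its call in 6 of 11 alternatives, which were 4 omissions of 1 library, total counts (0.463) and the replicate block (0.0749). YAP1 rose by 0.41 log2 (adjusted p = 0.0400), and this call was lost in 7 of 11 alternatives, which were the omission of any of the 5 libraries (adjusted p up to 0.177), DESeq2 size factors (0.0516) and the replicate block (0.0701). TSA1 and TRR1 gave 0.39 (adjusted p = 0.132) and −0.26 (adjusted p = 0.303).

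In rox2 the largest rises were CTA1 (log2 fold change 2.95, SE 0.660), SRX1 (2.49, SE 0.330) and PRX1 (2.31, SE 0.355), and the largest falls TKL1 (−1.30, SE 0.287), SKN7 (−0.81, SE 0.184) and GSH1 for glutathione synthesis (−0.80, SE 0.294), with adjusted p of 0.00277, 6.74e-05, 0.000214, 0.00253, 0.00303 and 0.0380. CTA1 and GSH1 lost their calls without rox2 CoCl2 replicate 1 (1.52 and −0.51, adjusted p = 0.105 and 0.295) and without both libraries of high no-feature share. Without both, SRX1, PRX1 and TKL1 kept their calls in rox2, at 1.73, 1.63 and −1.46 (adjusted p = 0.00316, 0.0103 and 0.00304), as did SKN7 (adjusted p = 0.00316). In rox1/rox2, PRX1 (1.94, SE 0.402), SRX1 (1.63, SE 0.373) and SOD2 for the mitochondrial superoxide dismutase (1.14, SE 0.230) rose, with adjusted p of 0.0141, 0.0213 and 0.0123, and these calls were lost without rox1/rox2 replicate 1 (0.164, 0.232 and 0.130). In rox1, MXR1 for a methionine sulfoxide reductase (1.25, SE 0.285), GRX5 for a mitochondrial glutaredoxin (0.72, SE 0.142) and GTT1 for a glutathione transferase (0.68, SE 0.178) rose, with adjusted p of 0.0146, 0.00615 and 0.0316. MXR1 lost its call without rox1 CoCl2 replicate 2 (0.164), and GRX5 and GTT1 lost theirs without rox1 replicate 1 (0.104 and 0.326).

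Between strains with CoCl2, 8 of the 47 genes were lower and 2 higher in rox1 than in WT, against 12.9% and 4.65% of all genes. GPX1 fell by 2.92 log2 (SE 0.427, adjusted p = 0.00117), CTA1 by 2.36 log2 (SE 0.708, adjusted p = 0.0354) and GRX4 by 1.23 log2 (SE 0.250, adjusted p = 0.00600), while MXR1 and TAH18 rose by 0.99 and 0.62 log2 (adjusted p = 0.0289 and 0.0407). GPX1 was sparse, with 22 and 42 counts in rox1 and 173 and 265 counts in WT with CoCl2. Without WT CoCl2 replicate 1 CTA1 reached −0.99 (adjusted p = 0.539) and TAH18 an adjusted p of 0.217, and MXR1 one of 0.437 without rox1 CoCl2 replicate 2, where 2 list genes were lower. Without WT CoCl2 replicate 1, 5 list genes and 238 of all genes were lower. No list gene was higher without WT CoCl2 replicate 2 or rox1 CoCl2 replicate 2, where 512 and 9 of all genes were. GRX4 lost its call in the fit of 2 groups. In rox2, 4 were higher than in WT and none lower, against 2.69% and 0.884% of all genes (149 and 49, or 89 and 14 with scaling by total counts). They included GRX1, GRX8 and TRX2 at 1.71, 1.40 and 1.17 log2 (adjusted p = 0.0137, 0.0330 and 0.0181), whose calls were lost without WT CoCl2 replicate 1 (0.0888, 0.132 and 0.104). None of the 47 was higher in rox2 without WT CoCl2 replicate 1 or 2, where 9 and 8 of all genes were. Without both rox2 libraries of high no-feature share 5 were higher, GRX1, GRX8 and TRX2 among them at 1.88, 1.12 and 1.30 log2 (adjusted p = 0.000655, 0.0380 and 0.0110). In rox1/rox2 SSU1 alone was lower (−1.35, SE 0.238, adjusted p = 0.00573) and none higher, against 3.77% and 1.24% of all genes (209 and 69, or 85 and 85 with scaling by total counts), and its call was lost without WT CoCl2 replicate 2 (0.0805) or rox1/rox2 CoCl2 replicate 2, while 3 were lower without rox1/rox2 CoCl2 replicate 1. Without CoCl2 none of the 47 was called by edgeR in any deletion strain against WT, where 0.0541% (rox1), 0.0722% (rox2) and 0.108% (rox1/rox2) of all genes were. At an unadjusted p under 0.05 there were 8 for rox1, 3 for rox2 and 6 for rox1/rox2, and DESeq2 called 2, 0 and 1. Of all 5544 genes, 464, 406 and 938 had an unadjusted p under 0.05. DESeq2 called 36, 46 and 113 of all genes higher and 9, 19 and 54 lower. Without rox1 replicate 2, edgeR called 5 list genes and 127 of all genes higher in rox1.

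For AHP1, CTT1 and TRR2 the genes with the most similar levels over the 10 groups were mostly peroxide and superoxide defence genes. Likeness was the root mean square difference of log2 group means, centred within each experiment, among 4722 genes. It is a description that shares libraries and depth. The groups include those that chose the members, so likeness in them, also between members such as AHP1 and TRR2, is no support. For AHP1 the closest were TRR2 (0.241), TSA1 (0.283) and TSA2 (0.298), beside a root mean square of 0.470 for AHP1 itself. TRR2 was closest to TSA2 (0.205), TSA1 (0.216) and NCAS0C03410 (0.235), beside 0.329 for TRR2 itself. NCAS0C03410 neighbours AHP1 in the annotation of assembly ASM23734v1 and carries no symbol there. CTT1 was closest to TSA1 (0.186), ERG12 of sterol synthesis (0.219) and SOD1 (0.228), beside 0.483 for CTT1 itself. YAP7 was closest to NCAS0I01310 (0.224), CTT1 (0.338) and TSA1 (0.362), beside 0.675 for YAP7 itself. For YHB1, ELO1 of fatty acid elongation came first at 0.821, beside 2.33 for YHB1 itself, and NCAS0C05630 (0.878) and NCAS0A03930 (0.914) next. The measure grows with how far a gene moves, so the distances of YHB1 cannot be set against those of the other genes.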

How the data were processed

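Per the submitters' processing notes, TopHat2 and HTSeq 0.6.0 were used; the sources used here do not state the build, annotation or strand setting. The values are raw counts as deposited by the authors. Per the labels, deletion libraries were stranded single-end reads made in-house and oxygen libraries stranded paired-end reads from another provider, so the experiments were fitted apart. The series' design text calls the libraries of a group biological replicates. In the main fit, p-values set a difference against a spread estimated over all groups of the experiment. For pairs of replicates, chi-square per degree of freedom ran from 4.25 (WT) to 127 (rox2 with CoCl2). The shared estimate therefore need not match each group. No 2 libraries of a group agreed within sampling noise. Exon entries (5852) were summed to 5648 genes, and symbols came from the RefSeq table of assembly ASM23734v1. The deletion files set aside reads matching several places, and the oxygen files list 0 such reads, so the paralogs TRR1 and TRR2, and TSA1 and TSA2, are uncertain where they are alike.

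CPM were scaled by TMM. Genes kept by filterByExpr (minimum 10 counts) were tested in R 4.3.3 with edgeR 4.0.16 (glmQLFTest, two-sided), using all 18 libraries in 8 groups or the 6 oxygen libraries. Calls are at a Benjamini-Hochberg adjusted p under 0.05 among all genes tested. SE is the size of the log2 fold change over the square root of F. Alternatives were DESeq2 1.42.0, its size factors, total counts, no filter, a replicate block, fits of 2 groups and omission of single libraries. After seeing the data, alternatives were added: omission of both rox2 libraries of high no-feature share, a crossed pairing in rox1, and the alternatives above for list genes in differences between CoCl2 responses. In simulated counts, 63.6% of 1-log2 and 100% of 2-log2 changes were called for CoCl2 in rox1, and 98% and 100% for hypoxia. Whether these percentages carry over to the sequenced libraries, whose replicate spread differed between groups, was not tested. For hypoxia, same-numbered libraries deviated together (r = 0.193, 0.360 and 0.146 across genes, which are not independent), which meets the criterion for pairs, although no label states a shared source; the fit without the block is the one reported, and counts with it stand beside it.

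The members and lists were chosen with earlier results of these data known, and comparisons of the members with WT libraries that entered the choice have no test. Named list genes were, in each comparison, up to 3 called genes per direction with the largest change, and relatives of the members. Of the 55 list symbols, 48 were found and 47 tested. Promoter motifs were not searched.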

Additional observations from a re-analysis of the deposited data

Results flagged for a closer look

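Some list genes had a CoCl2 response that differed between strains by the edgeR test of the difference itself. In rox1 minus rox2 12.8% of the list was lower, against 4.08% of all genes. In rox1 minus WT it was 4.3% of the list against 3.9% of all genes, so the list did not stand apart there. In rox1 minus rox2 the 3 largest of 6 were GPX1 (−2.47 log2), SRX1 (−2.37 log2) and PRX1 (−2.04 log2), and in rox1 minus WT the called genes were GPX1 (−3.07 log2) and GRX4 (−1.39 log2). Each call was lost when 1 of at least 4 single libraries was left out. Of 15 alternatives in rox1 minus rox2, 7 ended the call of GPX1, 5 that of SRX1 and 6 that of PRX1, and of 14 in rox1 minus WT, 4 ended that of GPX1 and 8 that of GRX4. None of these values changed sign. The smallest adjusted p among them was 0.0193, and each group held 2 or 3 libraries. Counts of GPX1 were low, at 22 and 42 in rox1 with CoCl2 and 36 to 44 in untreated WT.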

How the results depend on the processing

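Of 42 calls of named list genes, 13 held under every alternative, 28 were lost without at least 1 single library and 1 only otherwise. YHB1 passed with CoCl2 in all 3 deletion strains under every alternative. Groups of 2 or 3 libraries limit the precision of each comparison.

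With total counts, AHP1, CTT1 and TRR2 with CoCl2 in WT were at 0.043, 1.14 and 0.21, AHP1 and TRR2 in rox2 at 0.56 and 0.50 (5 of the 5 genes then passed there) and AHP1 in rox1/rox2 at 0.87. List genes lower with CoCl2 were then 2 in WT and 2 in rox2, and 1 was higher in rox1 than WT with CoCl2. The matching counts over all genes were 623, 701 and 176. That scaling moved the median of all genes by 0.27 without CoCl2 and 0.17 with CoCl2 in rox1/rox2 against WT, by 0.17 with CoCl2 in rox1, and by −0.10 in rox1 against WT with CoCl2 and in the response of rox1/rox2 minus WT. In rox1/rox2 against WT without CoCl2, AHP1, CTT1, TRR2 and YAP7 were then at −0.48, −0.049, −0.043 and −0.18. List genes lower in the CoCl2 response were 3 in rox1 minus rox2 and 1 in rox1 minus WT, where 70 and 74 of all genes were. DESeq2 size factors left CTT1 in rox1/rox2 at 0.91 (adjusted p = 0.0588), with 1 of the 5 genes called there and 1 list gene lower in rox1. With CoCl2 in rox1, 218 of all genes were lower with these size factors.

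In fits of 2 groups, CTT1 with CoCl2 was at 0.88 in rox2 and 0.92 in rox1/rox2 (1 of the 5 genes called). List genes with CoCl2 were then 7 lower in WT, 0 higher in rox1, 2 lower in rox2 and 1 higher in rox1/rox2. Of all genes, 1338, 46, 609 and 73 were. Against WT without CoCl2, 1 was lower in rox2, and 11 were higher and 14 lower in rox1/rox2. Of all genes, 13 were lower in rox2. In rox1/rox2, 1340 of 5488 genes were higher and 1456 lower, against 3 and 3 in the fit of 8 groups. The list counts in rox1/rox2 thus stand beside a large background. Against WT with CoCl2, 0 were higher and 1 lower in rox1, 0 higher in rox2 and 0 lower in rox1/rox2. Of all genes, 13, 85, 0 and 4 were. DESeq2 called 2 list genes lower in rox1 and 12 higher in rox1/rox2 with CoCl2, where it called 372 and 397 of all genes. Against WT it called 2 higher in rox1 and 1 higher in rox1/rox2 without CoCl2, and 7 higher in rox2 and 1 higher and 5 lower in rox1/rox2 with CoCl2. The matching counts over all genes were 36, 113, 364, 141 and 336. In differences of CoCl2 responses it called 17 lower in rox1 minus rox2, 1 higher and 7 lower in rox1 minus WT, 3 higher in rox2 minus WT and 2 lower in rox1/rox2 minus WT. The matching counts over all genes were 572, 156, 489, 90 and 186. Without both rox2 libraries of high no-feature share, which leaves 1 library of rox2 with CoCl2, CTT1 in rox2 was at 0.45. The cause of these changes was not tested.

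With the replicate number as a block, YHB1 in rox1/rox2 minus rox1 was at −0.0018, AHP1 and TRR2 in rox1/rox2 against WT without CoCl2 at −0.82 and −0.41, 1 list gene was higher in hypoxia, and 14 had a lower response in rox1 minus rox2, where the calls over all genes were 287 higher and 462 lower, against 85 and 226 without the block. The block changed no call of the 5 genes. In the deletion experiment no label pairs the libraries. Same-numbered libraries of rox2 and WT without CoCl2 deviated together by 0.0993, −0.256 and −0.125. With CoCl2, where each group holds 2 libraries, the correlations with WT were 0.781 for rox2, 0.699 for rox1/rox2 and 0.278 for rox1, and between treated and untreated libraries they were −0.0739 and 0.402 for WT, −0.265 and −0.326 for rox2 and −0.0748 for rox1/rox2. For CoCl2 in rox1, where the correlation was −0.127, same-number pairing called 132 genes, crossed pairing 185 and no block 52.

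Leaving out 1 library at a time, the ranges with CoCl2 were −0.28 to −0.14 for AHP1, −0.21 to 0.15 for TRR2 and 0.54 to 1.37 for YAP7 in WT, −0.71 to 0.17 for AHP1 and −0.033 to 0.42 for CTT1 in rox1, 0.65 to 1.05 for CTT1 and 0.94 to 1.41 for YAP7 in rox2, and 0.65 to 1.18 for CTT1 in rox1/rox2. Against WT, YHB1 with CoCl2 ranged from −2.99 to −1.98 in rox1/rox2, and in rox1/rox2 without CoCl2 AHP1 ranged from −0.78 to −0.66, CTT1 from −0.35 to −0.19 and TRR2 from −0.38 to −0.23. YHB1 ranged from −0.56 to 0.45 in rox1/rox2 minus rox1. In hypoxia, TRR1 ranged from −0.058 to 0.015 and CTA1 from −0.19 to 0.088. List genes lower in hypoxia ranged from 6 to 9. With CoCl2 they ranged from 11 to 18 higher and 1 to 4 lower in WT, 1 to 4 higher and 0 to 4 lower in rox1, 18 to 29 higher and 2 to 4 lower in rox2, and 0 to 3 higher in rox1/rox2. Against WT without CoCl2, 0 to 5 were higher in rox1. Against WT with CoCl2, 0 to 1 were higher and 2 to 8 lower in rox1, 0 to 3 higher in rox2, and 0 to 1 higher and 0 to 3 lower in rox1/rox2. In differences of CoCl2 responses, 0 to 2 list genes were higher and 0 to 17 lower in rox1 minus rox2, 0 to 1 higher in rox1/rox2 minus rox1, 0 to 3 lower in rox1/rox2 minus rox2, 0 to 1 higher and 0 to 5 lower in rox1 minus WT, 0 to 4 higher in rox2 minus WT and 0 to 2 lower in rox1/rox2 minus WT. Calls over all genes swung as well, from 0 to 569 lower in rox1 minus rox2. Of the 5 genes, 1 to 2 were called with CoCl2 in rox1/rox2.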
